A study of Mus musculus with 18 samples.

Results

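The comparison covers peaks of N6-methyladenosine (m6A) in mouse embryonic stem cells (ESCs) that lack Mettl3, set against wild-type ESCs. Mettl3 is the catalytic subunit of the nuclear enzyme that writes m6A on mRNA, and works as a dimer with Mettl14. In m6A-seq an antibody pulls down RNA fragments that carry the mark, and a peak is a stretch where these fragments pile up over the unenriched input. Most m6A of mRNA lies in a short sequence around GGAC and is densest near stop codons and in long internal exons. The same antibody also binds m6Am, a related mark on the first transcribed adenosine beside the cap, which another enzyme, Pcif1, writes.

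The genes compared were those with a peak in each of the 3 wild-type ESC libraries (A, B and C). There were 5156 of them, out of 13339 genes with a peak in at least 1 wild-type ESC library and 15965 with a peak in any of the 7 libraries read here. Each wild-type peak on these genes was sorted by whether a knockout peak overlapped it by at least 1 bp. A wild-type peak with such an overlap is called kept below. A gene keeps a peak when this holds in at least 1 wild-type library.

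The knockout group is 1 library of Mettl3-knockout ESCs, which the submitters marked as a negative control. The wild-type group is 3 libraries of the ESC line that the labels call BVSC, and 3 libraries of BVSC embryoid bodies (EBs), aggregates that differentiated for 8 to 21 days in serum-containing medium, are used beside them. All are labelled C57BL/6, and the labels give the ESC medium as serum-free N2B27 with LIF and the 2i inhibitors CHIR99021 and PD0325901. The labels name the knockout cells only as embryonic stem cells, and neither their descent from the BVSC line nor whether they are 1 clone is stated there. The whole series has 18 samples, with an input for each enriched library and fibroblasts that were not used here.

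The knockout list holds 2043 peaks, with a median width of 98 bp. Those of the wild-type libraries hold 10515, 19816 and 17698 peaks, with median widths of 229, 162 and 166 bp. The files give positions without scores or reads, so depth is unknown, and a peak needs both the mark and enough of the transcript. An absent peak therefore cannot be told apart from less of that RNA. With a single knockout library no difference between the conditions could be tested, and intervals cover counting error only. Where 3 wild-type libraries give a mean and an SD, that SD covers the wild-type side alone, because each library is set against the same knockout list. Mettl3 itself had no peak in any library and is not among the genes compared, so the label could not be checked from it. Of 10 naive pluripotency markers, 7 had a peak in the knockout, and 8, 8 and 9 had one in the wild-type libraries. Of 10 markers of differentiated cells, 0 had a knockout peak, and 2, 6 and 8 had one in wild-type libraries A, B and C. The part of this difference in the results was not tested.

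The sequences below carry the 3 situations that the results turn on. The first set shows 4 genes whose first peak was kept in all 3 libraries (in Klf4 that of library B is centred 225 nt from the start and counts as a 5′ UTR peak), with the annotated first base of the canonical transcript in capitals, 10 genomic bases before it and 19 after it.
Nanog: accctttaaaTctatcgccttgagccgttg
Klf4: cagttccccgGccaagagagcgagcgcggc
Hk2: aataagccacAttgttgcaccaactccagt
Psmb4: aaaggaccacTtccgtttccggtgacgcta
On GRCm38 these lie at chr6:122707558-122707587 (plus strand), chr4:55532447-55532476 (minus), chr6:82774435-82774464 (minus) and chr3:94886942-94886971 (minus). The second set shows, in the same way, 3 genes with a start peak in all 3 wild-type libraries and no knockout peak over any of them.
Nr0b1: cccaagcggcGgccactgggcagaacgagc
Tcl1: gataaatagaCgcgtttctcatgctcaccg
Psmb5: gcgttgccagTcggaggcagttcctgttgc
These lie at chrX:86191754-86191783 (plus strand), chr12:105222718-105222747 (minus) and chr14:54618003-54618032 (minus). The third set shows the 3 matches to ACAGAGA, in capitals, inside a knockout peak in the 3′ UTR of Mat2a. It is the widest knockout peak that overlaps a kept peak far from a start.
Mat2a site 1: gctggtgtagctACAGAGAaaccagcttcc
Mat2a site 2: tatggcgtaagtACAGAGAagccatcacct
Mat2a site 3: ggctggtgtggtACAGAGAagccagcttgt
They lie on the minus strand at chr6:72433272-72433301, chr6:72433157-72433186 and chr6:72432938-72432967. All sequences were read from the GRCm38 genome.

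A minority of genes kept a peak, and most of those kept it at the 5′ end. Of the 5156 genes, 917 kept a peak (17.8%, Wilson 95% interval 16.8 to 18.9), and 4239 kept none. Of the 917, 685 kept one within 200 nt of the canonical transcript start (74.7%). The 917 divide into 432 genes that kept a peak in all 3 wild-type libraries (8.38%), 253 in exactly 2 and 232 in exactly 1. Protein-coding genes kept a peak in 18.1% of cases (877 genes), and the other gene models, such as antisense and long non-coding RNAs, in 12.9% (40 genes). Counted over peaks, 528 of 7655 were kept in library A (6.90%), 861 of 12206 in B (7.05%) and 570 of 10646 in C (5.35%), a mean of 6.44% ± 0.939 (SD, n = 3 wild-type libraries).

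Seen from the knockout side, 1070 of the 2043 peaks lay on exons of these genes. Of the 1070, 396 overlapped a peak in all 3 wild-type libraries, 259 in 2, 257 in 1 and 158 in none, so that 85.2% met at least 1. The 912 with an overlap were centred within 200 nt of the annotated transcript start in 683 cases (74.9%) and near the stop codon in 2. Of the 158 without one, 88 lay at the start (55.7%), 25 in coding sequence and 6 near the stop codon. A knockout peak that met a start peak lay close to its middle. The median distance between the centres was 14.5, 13.5 and 13.5 bp for libraries A, B and C, and 80.7%, 64.8% and 48.7% of the kept start peaks held a knockout peak entirely inside them.

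Position along the transcript separated kept from other peaks. Peaks centred within 200 nt of the canonical start, called start peaks here, were kept in 46.4%, 32.0% and 41.5% of cases in libraries A, B and C (mean 40.0% ± 7.31). All other peaks were kept in 2.25%, 2.30% and 1.63% (2.06% ± 0.375). The gap of 37.9 percentage points exceeded the spread between wild-type libraries, and the start share was higher in 3 of 3. Further along the 5′ UTR the share was 17.9% ± 1.82, and in coding sequence 1.13% ± 0.281. It was 0.174% ± 0.105 within 200 nt of the stop codon and 0.162% ± 0.0265 in the 3′ UTR (SD, n = 3 each). Summed over the libraries, 12 of 7201 stop codon peaks and 9 of 5566 3′ UTR peaks were kept. Peaks whose centre fell in no exon of the canonical transcript were kept in 15.3% ± 2.56 of cases. An example is Hspa5, an endoplasmic reticulum chaperone, whose kept peaks were centred 104, 72 and 71 nt from the nearest annotated start of the gene.

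**Figure D1:**
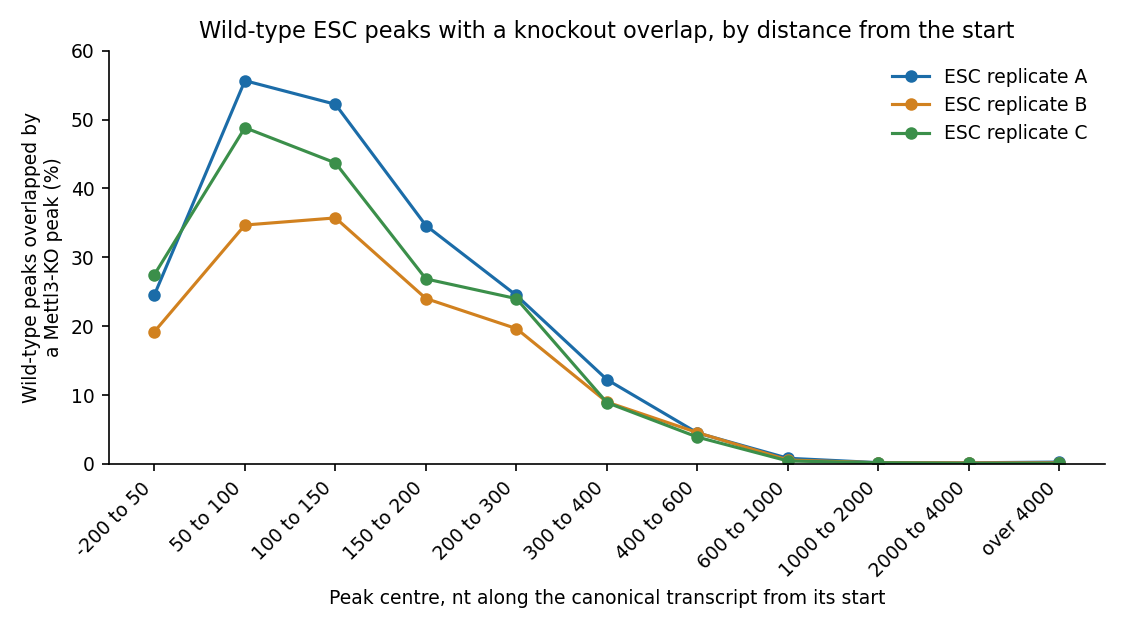
Percentage of wild-type ESC peaks overlapped by a Mettl3-knockout peak (vertical axis) against the distance of the peak centre from the canonical transcript start in nt (horizontal axis, unequal bins), with 1 line for each wild-type library. Only peaks on genes with a coding canonical transcript are included. The share stood between 34.7% and 55.7% at 50 to 100 nt in the 3 libraries, and was below 0.3% in each bin beyond 1000 nt.

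Shares by distance were taken over peaks on genes with a coding canonical transcript. Among start peaks the share was highest when the centre lay 50 to 150 nt inside the transcript. At 50 to 100 nt it was 55.7%, 34.7% and 48.8% in libraries A, B and C, and at 100 to 150 nt 52.2%, 35.7% and 43.7%. Below 50 nt it was 24.6%, 19.2% and 27.5%, and at 150 to 200 nt 34.6%, 24.0% and 26.9%. Between 200 and 300 nt it was 24.5%, 19.6% and 24.0%. From 400 to 600 nt it was 4.50%, 4.55% and 3.89%. Over all gene models, kept and other start peaks differed by only a few nt in median depth, although the share varied with depth inside the start window. Their median centres were at 110.5 and 114 nt in library A, 94 and 92 nt in B, and 94 and 99.5 nt in C.

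Genes with several peaks rarely kept them all. Among the 917 genes, 297 had 2 or more peaks in library A with at least 1 of them kept, and in 289 of these some other peak was not kept (97.3%). The same held for 655 of 668 genes in B and 386 of 398 in C. Hk2, the hexokinase that starts glycolysis, shows the form. Its knockout peak of 82 bp was centred 78 nt from the start, against wild-type start peaks of 308, 315 and 229 bp centred at 152, 167 and 124 nt. Its stop codon peaks of 324, 300 and 252 bp and both 3′ UTR peaks in each library had no knockout peak.

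Whether a start peak was kept went with how regularly the wild-type libraries called it. Of the 5156 genes, 2882 had no start peak in any wild-type library, 1170 had one in 1 library, 576 in 2 and 528 in all 3. A start peak was kept in 182 of the 1170 (15.6%), 211 of the 576 (36.6%) and 292 of the 528 (55.3%, interval 51.0 to 59.5). Of these 292, 283 kept it in all 3 libraries. The remaining 236 genes had a start peak in every wild-type library and no knockout peak over any. The count of 292 was 527 of 1264 genes without library A, 304 of 575 without B and 456 of 916 without C, since fewer libraries then had to hold the peak.

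The 292 and the 236 genes were also set side by side on measures that did not choose them, with no test. The 5′ UTR had a median length of 132 nt in the kept set (276 coding genes) and 188 nt in the other (192 coding genes). The first exon, taken over all 292 and 236 gene models, coding or not, had a median of 213 nt, against 323.5 nt. Protein-coding genes made up 94.5% of the kept set and 81.4% of the other. The number of exons was similar, with medians of 8 and 7. An adenosine stood at the annotated first base in 87 of 292 kept genes (29.8%, interval 24.8 to 35.3) and in 71 of 236 others (30.1%, interval 24.6 to 36.2), a difference of -0.290 percentage points. Over all 5156 genes it stood there in 26.3%. Within 5 nt of the annotated start an adenosine occurred in 83.9% of kept genes and 89.4% of others. Annotated starts can lie several bases from those used in these cells, so the base says little about the true first nucleotide of a given mRNA. In the 4 kept examples above, that base was an A in Hk2 alone.

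The motif GGAC was less frequent in kept start peaks. It was sought in transcript sense, up to 50 nt either side of each centre. Kept start peaks held it in 45.5%, 42.2% and 44.4% of cases in libraries A, B and C, and start peaks without a knockout overlap in 60.3%, 51.5% and 55.0%. The difference was -11.6 ± 2.89 percentage points (SD, n = 3), larger than the spread between the libraries and negative in each of them. Peaks elsewhere on the transcript showed -9.21 ± 2.84 points, with 49.8% in kept peaks and 59.0% in the others. Place was not matched in that second comparison. In library A, 49 of its 100 kept peaks lay in the 5′ UTR, against 197 of 6432 others, and the part of place was not tested.

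EB libraries, which took no part in choosing the peaks, called the kept start peaks more often. A peak of each of the 3 EB libraries overlapped 72.5%, 60.8% and 69.2% of kept start peaks of A, B and C, against 44.7%, 23.2% and 37.1% of the other start peaks. The means were 67.5% ± 6.02 and 35.0% ± 10.9, a difference of 32.5 ± 4.91 points. Among genes with a start peak in every wild-type library the gap was smaller, with 230 of 292 kept genes (78.8%, interval 73.7 to 83.1) and 152 of 236 others (64.4%, interval 58.1 to 70.2). The number of wild-type ESC libraries that called the peak therefore moved with this result.

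**Figure D2:**
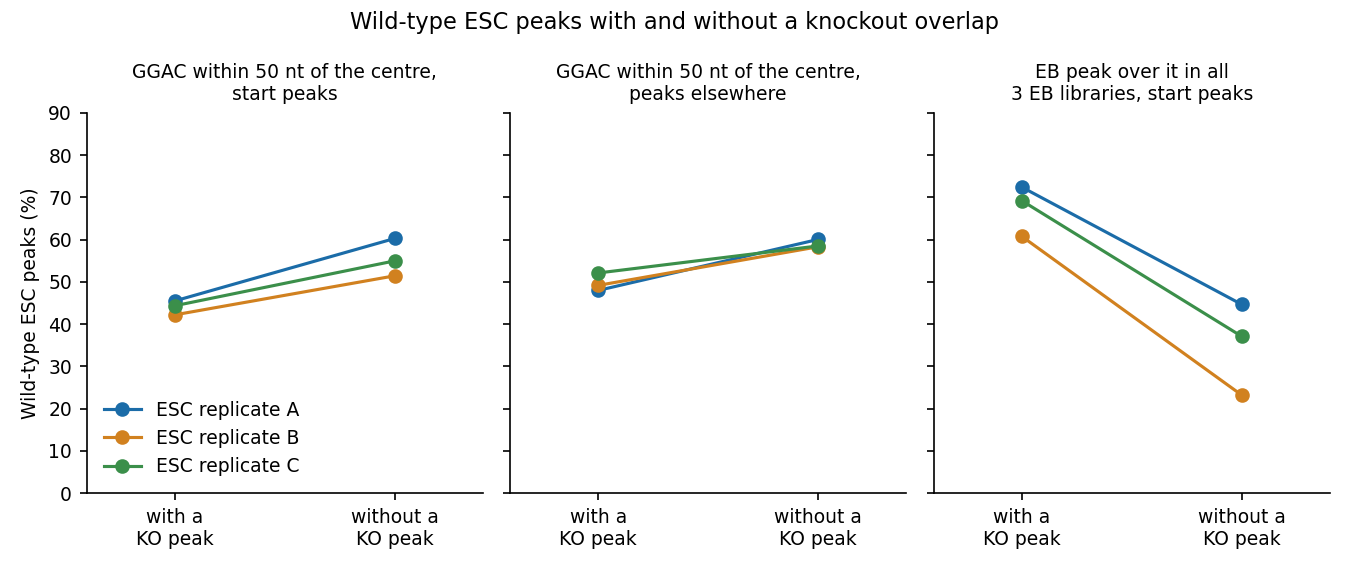
Percentage of wild-type ESC peaks (vertical axis) that held GGAC near the centre, at starts and elsewhere, or that had a peak of all 3 EB libraries over them, split by whether a Mettl3-knockout peak overlapped (left point) or not (right point), with 1 line for each wild-type library. In all 3 libraries GGAC was less frequent, and an EB peak more frequent, in peaks with a knockout overlap.

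Gene lists by function, drawn up for this comparison with earlier results of these data known, are described by counts beside the 17.8% of all genes compared. A gene could keep a start peak only if a wild-type library had one. Among the 2274 genes with a start peak in at least 1 wild-type library, 685 kept it (30.1%). Several lists of cellular maintenance stood at the upper end, though translation factors (5 of 11) and DNA replication genes (4 of 16) were lower. Subunits of the proteasome, which degrades ubiquitinated proteins, kept a peak in 10 of 11 genes. Aminoacyl-tRNA synthetases, which charge tRNAs with amino acids, did so in 8 of 9, genes of the respiratory chain and ATP synthase in 4 of 5, SR and hnRNP splicing factors in 15 of 23, and chaperones in 5 of 8. The lists of matrix and adhesion genes (12 of 18), cytoskeleton (7 of 11) and glycolysis (5 of 8) were also above the whole. The 29 lists had a median of 29.4%.

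Lists of signalling pathways, and some of chromatin regulators, stood near the 17.8% of all genes compared, on its lower side. Counts this small do not set these lists apart from that share. Wnt signalling kept a peak in 3 of 19 genes, TGF-beta, Nodal and BMP signalling in 2 of 18, LIF, FGF and ERK signalling in 3 of 21, Polycomb and Trithorax regulators in 4 of 30, and DNA and H3K9 methylation genes in 2 of 15. BAF and other chromatin remodelling genes kept one in 5 of 17, above that 17.8%. The Zfp zinc finger genes, mostly transcriptional repressors, kept one in 16 of 153. All 4 long non-coding RNAs of the list with a peak in every wild-type library (Lncenc1, Meg3, Rian and Tug1) kept none. None of them had a start peak in a wild-type library, and genes without one kept a peak in only 6.77% of cases. Malat1 and Neat1, nuclear long non-coding RNAs with no peak in library A and so outside the 5156, had knockout peaks of 319 and 153 bp at the start. These overlapped their start peaks in B and C, of 179 and 161 bp in Malat1 and of 108 and 136 bp in Neat1, while peaks further along both RNAs had no knockout overlap. The lists also differed in how many members had a start peak at all. These were 12 of 30 in the Polycomb list, 56 of 153 Zfp genes, 11 of 19 in Wnt, 10 of 21 in LIF, FGF and ERK and 8 of 18 in TGF-beta signalling, and 9 of 11 proteasome genes and 8 of 9 synthetases. Of those members, 3 of 12 in the Polycomb list, 14 of 56 Zfp genes and 3 of 10 in LIF, FGF and ERK signalling kept it, near the 30.1% above. In Wnt signalling 2 of 11 did, in TGF-beta signalling 1 of 8 and among DNA and H3K9 methylation genes 2 of 4. Among BAF and other remodelling genes 4 of 6 did, in the proteasome 8 of 9 and among synthetases 7 of 8. The counts were 3 of 5 in the respiratory chain list, 11 of 17 for splicing factors, 4 of 5 for chaperones and 4 of 5 for glycolysis. They were 7 of 12 for matrix and adhesion, 5 of 5 for the cytoskeleton, 2 of 5 for translation factors and 2 of 6 for DNA replication. All 5 respiratory chain genes had a start peak in all 3 wild-type libraries. Levels of these mRNAs are not in the files, and their part in these shares was not tested.

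**Figure D3:**
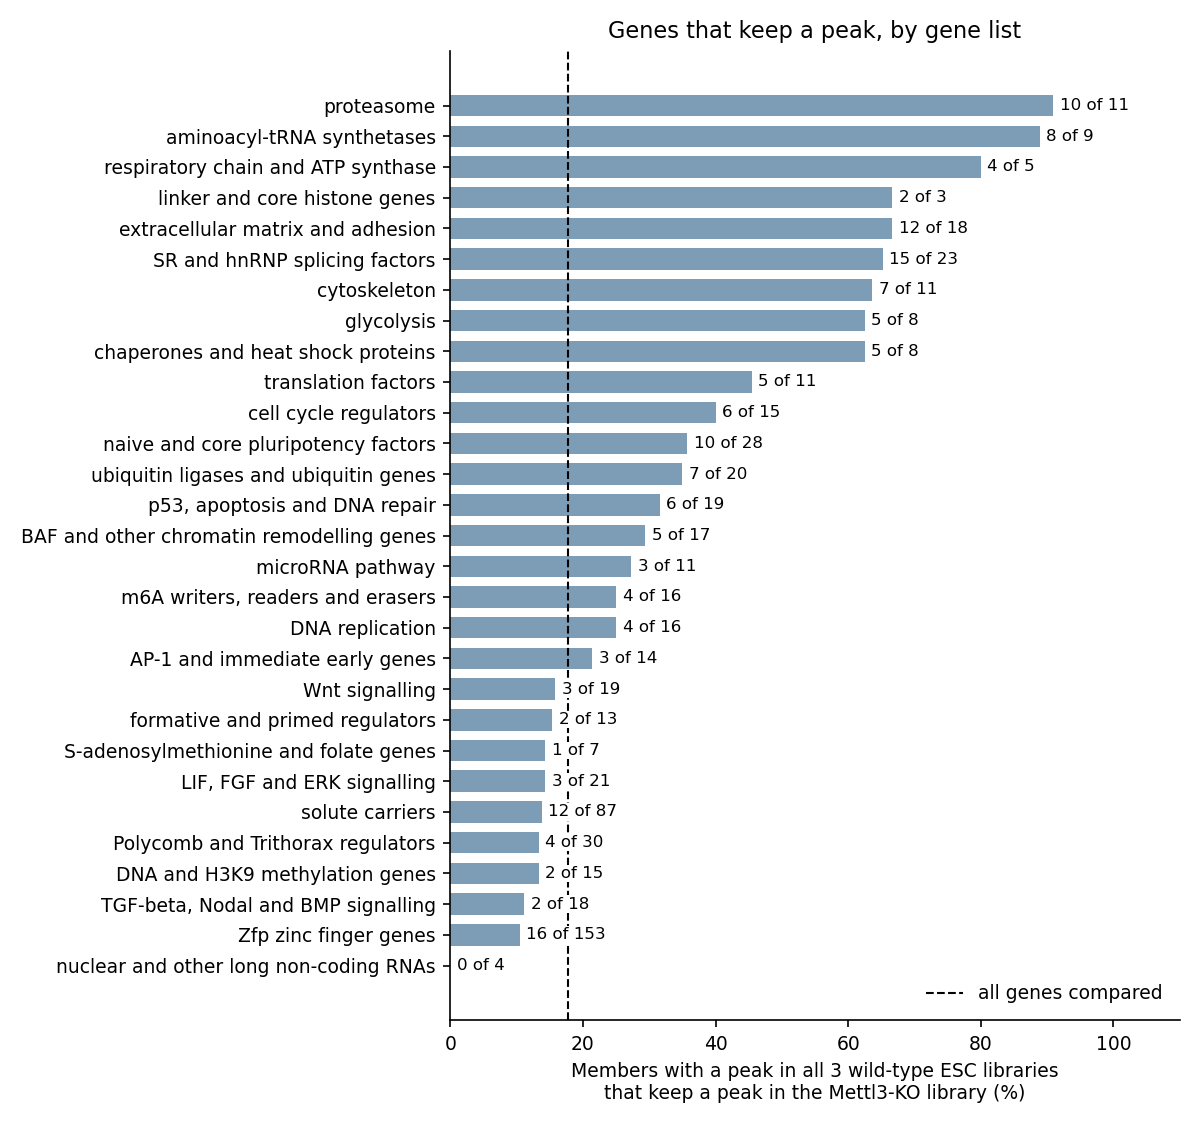
Percentage of each gene list's members with a peak in all 3 wild-type ESC libraries that keep a peak in the Mettl3-knockout library (horizontal axis, bars), with the counts beside the bars and the 17.8% of all genes compared as a dashed line. The proteasome (10 of 11) and aminoacyl-tRNA synthetases (8 of 9) are at the top and the Zfp genes (16 of 153) near the bottom.

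Most of the kept proteasome peaks lay at the start. Psmb4, a subunit of the core particle, had a knockout peak of 117 bp centred 107 nt from its start, against wild-type peaks of 307, 138 and 117 bp centred at 177, 106 and 97 nt. Psmd1 and Psmd2, scaffold subunits of the regulatory particle, had knockout peaks of 95 and 127 bp at 122 and 128 nt. Their wild-type peaks were 151, 143 and 126 bp in Psmd1 and 175, 137 and 117 bp in Psmd2. Psma6 and Psma4 of the core's outer rings, and Psmd3, Psmd4 and Psmd7 of the regulatory particle, also kept a start peak. Psmd8 kept a peak 37 to 57 nt from an alternative start and none of its 3′ UTR peaks. Psmc2, an ATPase of the regulatory particle, kept coding peaks at 413, 401 and 403 nt. Psmb5, the subunit with chymotrypsin-like activity, was the exception, with start peaks of 246, 172 and 172 bp in A, B and C and no knockout peak.

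Of the synthetases, Aars, Cars, Dars, Eprs, Iars, Mars and Rars kept a start peak in at least 1 library, Yars kept a peak 209 to 223 nt from its start, and Sars kept none. Yars had 3′ UTR peaks of 710 bp in A and 657 bp in B that were not kept. Among splicing factors, Srsf2, an SR protein, had a knockout peak of 151 bp at 109 nt, against wild-type start peaks of 296, 200 and 135 bp. The centre of the knockout peak lay within the range of the wild-type centres. Cdh1, the adhesion protein E-cadherin, kept its start peak (knockout 104 bp, wild type 258, 166 and 168 bp) and not its stop codon peak of 271, 217 and 217 bp.

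Naive and core pluripotency factors kept a peak in 10 of 28 genes (35.7%). Over all genes compared the share was 17.8%, and the median over the 29 lists was 29.4%. Of the 18 factors with a start peak in a wild-type library, 7 kept it (38.9%), against 30.1% of all genes with such a peak. Of the list's 181 peaks away from the start, summed over the libraries, 13 were kept, against 547 of 26754 over all genes compared. The kept ones of Spp1, Esrrb and Tbx3 were centred 78 to 107, 203 to 211 and 57 nt from the nearest annotated start. Those of Klf4 and Gdf3 were centred 225 and 236 nt from it. That of Trim71 met a knockout peak at the gene's own start. Nanog, a homeobox factor of the naive state, had a knockout peak of 323 bp, the third widest knockout peak among the genes that kept one in all 3 libraries, against start peaks of 169, 221 and 113 bp in A, B and C. The knockout centre lay in coding sequence, 233 nt from the start, and fell inside the wild-type peak in 1 of the 3 libraries. Its stop codon peaks of 463, 460 and 386 bp were not kept. Klf4, a Krüppel-like factor, had a knockout peak of 107 bp at 79 nt, against first peaks of 269, 447 and 124 bp at 116, 225 and 67 nt. In library C the next peak of Klf4, at 344 nt in the 5′ UTR, was not kept. Klf2, its paralogue, had a knockout peak of 101 bp at 105 nt, against 186, 139 and 123 bp at 106, 107 and 110 nt. The coding peaks of Klf2 (572, 474 and 220 bp) and its stop codon peaks (501, 490 and 459 bp) had no knockout peak.

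Mycn, a Myc family factor, repeated this, with a knockout peak of 127 bp against start peaks of 168, 191 and 110 bp and stop codon peaks of 861, 677 and 725 bp that were not kept. Esrrb, an orphan nuclear receptor, kept its first peak of 336, 365 and 342 bp through a knockout peak of 82 bp, which lay 410 nt from the canonical start and 118 nt from the nearest annotated start. Trim71, an RNA-binding ubiquitin ligase, had a knockout peak of 104 bp at 124 nt, against a first peak of 1071, 183 and 123 bp in A, B and C. Spp1, Gdf3, Tbx3 and Tet2 were the other members that kept a peak. Tbx3 and Tet2 did so in library B alone. Sox2 had 1, 2 and 2 peaks in A, B and C, none within 200 nt of its start, and no knockout peak. Nr0b1, Tcl1 and Tdgf1 had start peaks in all 3 wild-type libraries and no knockout peak over them. For Nr0b1, an orphan receptor that acts as a corepressor, these were 316, 228 and 118 bp wide.

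**Figure D4:**
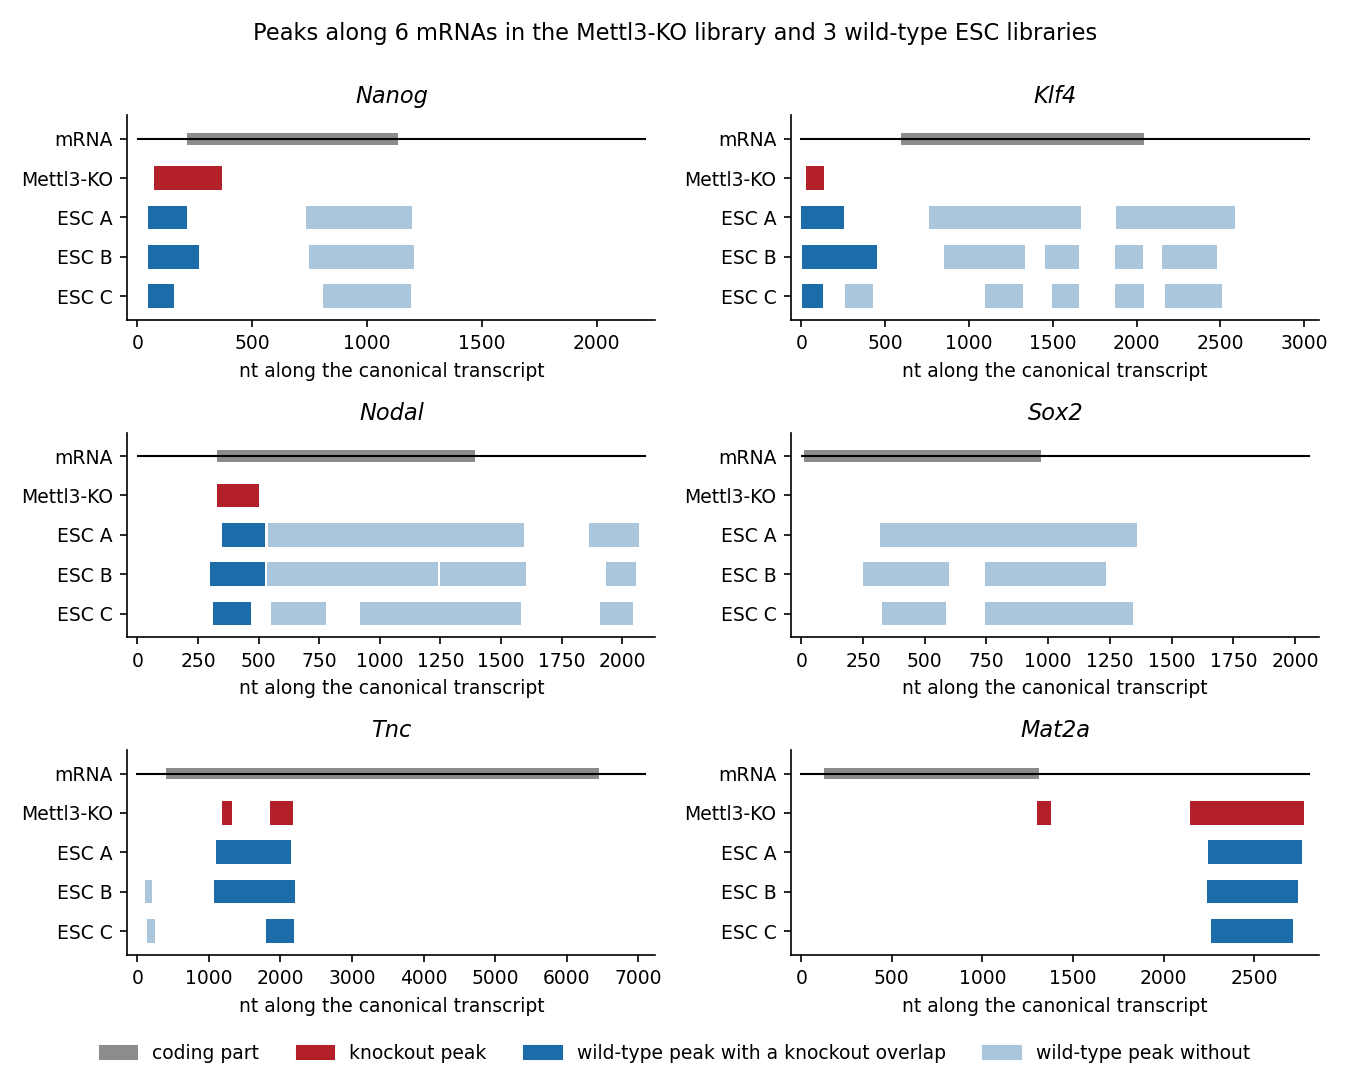
Peaks along the canonical mRNAs of 6 genes (horizontal axis in nt from the transcript start, grey bar for the coding part), with the Mettl3-knockout library above the 3 wild-type ESC libraries, and wild-type peaks coloured by whether a knockout peak overlaps. Nanog and Klf4 keep the first peak, Nodal keeps its first peak in the coding part, Sox2 keeps none, and Tnc and Mat2a keep peaks far from the start.

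Genes of the m6A pathway kept a peak in 4 of 16 cases (25%), against 17.8% of all genes compared. Of the 8 with a start peak in a wild-type library, 3 kept it, against 30.1% of all genes with such a peak. Counts this small do not set the list apart from those shares. Hnrnpa2b1, an RNA-binding protein reported as an m6A reader, had a knockout peak of 151 bp, against start peaks of 194, 195 and 169 bp. Ythdc1, the nuclear reader, had one of 150 bp, against 304, 295 and 156 bp, on both sides of its annotated starts. Wtap, a subunit of the writer complex, kept a peak of 160 and 157 bp near an alternative start in B and C, while its coding peaks of 529, 435 and 418 bp were not kept. Ythdf3, a cytoplasmic reader, kept a start peak in 1 library. The erasers Alkbh5 and Fto, the writer subunits Virma, Zc3h13, Rbm15, Rbm15b and Cbll1, Pcif1, Mettl16, and the readers Ythdf1, Ythdf2 and Igf2bp1 kept none. Of these, Alkbh5, Fto, Zc3h13, Rbm15, Rbm15b, Cbll1 and Ythdf2 had no start peak in any wild-type library. Mettl16 had coding peaks of 157, 158 and 157 bp without a knockout peak.

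The members of the Wnt and TGF-beta lists that kept a peak are named here. Ctnnb1, the transcriptional effector beta-catenin of Wnt signalling, had a knockout peak of 140 bp, against start peaks of 203, 157 and 108 bp. Its stop codon peaks of 405, 388 and 363 bp were not kept. Csnk1a1, a kinase of the same pathway, kept its start peak in all 3 libraries. Gsk3b, the kinase that CHIR99021 inhibits, kept a 5′ UTR peak (knockout 86 bp, wild type 401, 372 and 296 bp) whose centre lay 713, 695 and 685 nt from the start. Nodal, a TGF-beta family ligand, had a knockout peak of 172 bp in the first part of its coding sequence, against 251, 292 and 160 bp. Its later coding, stop codon and 3′ UTR peaks were not kept in any library. Smad4, the common mediator of the pathway, kept a start peak in 2 libraries. Tcf7l1, a repressor of Wnt targets, had start peaks of 142, 140 and 111 bp and kept none.

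A peak away from the canonical start was kept by 305 genes (5.92%), and by 114 of them in all 3 libraries. The count depends on the settings, with 624 genes for a start window of 100 nt, 179 for 500 nt, and 159 when only peaks found in all 3 wild-type libraries count. In 111 genes the kept peak was within 200 nt of another annotated start, in 96 it was 200 to 500 nt from the nearest one, and in 72 its centre was in no annotated exon of the gene. In the other 26 genes it lay over 500 nt from every annotated start of the same gene, and 14 of these kept it in all 3 libraries. In 11 of the 26 the knockout peak was nevertheless within 500 nt of a start, mostly that of an overlapping gene. One such is AC167363.2, whose knockout peak lies 58 nt from the start of Cdkn1a, and in Trim71 a wide peak of library A met the knockout peak at the start of Trim71 itself. The remaining 15, of which 14 are protein-coding, had a knockout peak over 500 nt from the annotated starts of all genes whose exons it overlaps. Rap2b and B430305J03Rik, which overlap, shared the same knockout peak. Peaks of all 3 EB libraries lay over the knockout peak in 14 of the 26 genes and peaks of none in 2.

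Mat2a, the gene of the synthetase for S-adenosylmethionine, the methyl donor of m6A, had the widest knockout peak of all genes that kept one in every library. It measured 628 bp (chr6:72432828-72433455, minus strand) and lay in the 3′ UTR, against wild-type peaks of 518, 507 and 449 bp in A, B and C. It thus extended beyond the peak of each wild-type library. A knockout peak wider than each wild-type peak was not particular to Mat2a, and also occurred in Nanog, Atpif1 and Slc3a2. The knockout peaks of Psmd1 and Klf2 were narrower than each wild-type peak. As background, hairpins of the Mat2a 3′ UTR are known substrates of Mettl16, a methyltransferase separate from the Mettl3 complex, which acts on a sequence that contains ACAGAGA. The canonical transcript holds 5 matches to ACAGAGA, searched on the transcript strand, all of them in the 3′ UTR. The wide knockout peak holds 3 of them, those printed above. A further knockout peak of 77 bp near the stop codon holds 1, and no wild-type library had a peak there. Of the 7 members of the list of S-adenosylmethionine and folate genes with a peak in every wild-type library, Mat2a alone kept one. This share of 14.3% is near the 17.8% of all genes compared.

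ACAGAGA was otherwise rare among knockout peaks. It occurred in 13 of 1070 (1.21%), and Mat2a was the only gene with more than 1 match in a knockout peak. Wild-type peaks, which are wider, held it in 5.76%, 4.68% and 4.95% of cases in A, B and C. Of these, 22, 27 and 24 peaks held 2 or more matches. A match describes the sequence and is not evidence of a modified site.

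Other genes with a kept peak far from a start had narrower knockout peaks. Tnc, the matrix protein tenascin-C, had knockout peaks of 324 and 153 bp in its coding sequence, both under the wild-type peaks of 1047 bp in A and 1131 bp in B, while the 401 bp peak of C met the wider. Its start peaks of 102 bp in B and 108 bp in C were not kept. The 2 Tnc knockout peaks hold 4 and 2 matches to GGAC, of which those nearest the centres are shown in capitals.
Tnc GGAC in the 324 bp peak: gcgctgtgtagacGGACagtgcatctgtga
Tnc GGAC in the 153 bp peak: gctttgcgggtgaGGACtgcaacgagcccc
They lie on the minus strand at chr4:64017142-64017171 and chr4:64017851-64017880. Gab1, an adaptor protein of receptor tyrosine kinases, kept 1 coding peak (knockout 204 bp, wild type 253, 220 and 183 bp) and neither its start peaks, present in A and B, nor its 3′ UTR peak of 209, 217 and 182 bp. Ino80d, a subunit of the INO80 remodelling complex, kept a 3′ UTR peak (knockout 149 bp, wild type 294, 378 and 272 bp). Its coding peak of 1393 bp in A and 1388 bp in B was not kept. Neither the Gab1 nor the Ino80d knockout peak held GGAC or ACAGAGA. Col5a1, a fibrillar collagen, kept a stop codon peak in A (248 bp) and B (286 bp) under a knockout peak of 78 bp, and had no such peak in C.

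After Mat2a, Tnc and Nanog, several of the widest knockout peaks among genes that kept one in all libraries lay at or just beyond starts. Atpif1, an inhibitor of ATP synthase, had one of 242 bp, against 241, 200 and 137 bp in the wild-type libraries. This peak is shared with the antisense model Gm12999, and strand is not known. H1f0, a linker histone, had one of 213 bp, against 251, 235 and 140 bp, shared with the antisense model Gm49544. Its stop codon peaks of 163, 210 and 195 bp were not kept. Slc3a2, the heavy chain of amino acid transporters, had one of 197 bp, against 184, 170 and 125 bp. Ybx1, a cold shock domain RNA-binding protein, had one of 200 bp, against 151, 238 and 123 bp. A single knockout peak of 237 bp counted for Atf5, Nup62 and Il4i1, whose gene models overlap. The knockout peaks of Atpif1 and Slc3a2 were wider than each wild-type peak, while those of H1f0 and Ybx1 lay within the wild-type range.

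At the other end, the widest start peaks without a knockout overlap belonged mainly to non-coding models that overlap other genes, such as Gm11175, an antisense model with a mean width of 695 bp over the wild-type libraries, and the microRNA gene Mir671, with 462.7 bp. Of the 10 widest, E130208F15Rik (386.7 bp) and Zc3hav1 (381.3 bp) are protein-coding. For Zc3hav1, an antiviral zinc finger protein, the start peak measured 373, 625 and 146 bp in A, B and C, and its coding peaks in B and C were not kept either.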

How the data were processed

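Antibody-enriched m6A-seq libraries were compared through the peak positions that the authors deposited, 1 list per library for the knockout, ESC and EB libraries, with their final ESC list as an alternative. The deposited columns hold chromosome, start and end, with no count, score or fold, and the other final lists were not used. The submitters' processing notes name mm10 as the build and, among tools, MACS 1.4.1, TopHat2 2.0.10 and CASAVA 1.8.2. Per the file headers and contents, ESC and EB peak names begin with MACS2, while the knockout list has no names and separates its columns by spaces. No source used here states whether it was called with the same settings.

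Peaks were placed on the basic gene models of GENCODE M21 (GRCm38), without strand. A gene had a peak when at least 1 bp overlapped one of its exons, so overlapping models can share it. For shares over peaks, each peak was counted once. The place of a peak is that of its centre on the canonical transcript (coding, then by APPRIS rank, CCDS and length), within 200 nt for starts and stop codons. Wilson intervals are at 95%. No test between conditions was run, and wild-type libraries were treated as replicates because the labels call them so. The genes named are the members of the gene lists, the 20 with the widest knockout peak and up to 30 kept away from the start among genes kept in all 3 libraries, the 10 widest start peaks not kept, and 10 single genes. Genes kept over 500 nt from every start were named after their values were seen, as were Hspa5 and Hk2 as examples and the genes whose start sequences are printed. The members and the 29 lists were chosen with earlier results of these data known. A further list of ribosomal protein genes was dropped because its symbol prefix also took kinase genes. The sorting of peaks was tested on simulated data. Alternatives changed the overlap, the libraries required, the gene models, the start window and the motif window. Python 3.11.15, NumPy 2.4.6, SciPy 1.17.1, pysam 0.24.0 and matplotlib 3.10.9 were used.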

Additional observations from a re-analysis of the deposited data

How the results depend on the processing

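No paired analysis was possible because the single knockout library carries no replicate letter and no comparison was tested. Of 80 alternative values of the main results, 64 stayed within the wild-type spread or within 1.5 times the count, and 0 reversed. The difference in A at the start was judged by its counting interval instead, and its changes of sign were not counted as reversals. Stricter overlap (at least 0.5 of either peak, or the knockout centre inside) moved none of them, though with the centre rule Nanog kept a peak in 1 library instead of 3. Leaving out each wild-type library gave 6.08% to 7.79% kept peaks. Genes keeping a start peak were then 527 of 1264 without A (41.7%), 304 of 575 without B (52.9%) and 456 of 916 without C (49.8%). With a peak required in 2 of 3 libraries, 705 of 1699 genes kept a start peak (41.5%), against 292 of 528 (55.3%) in the main setting. With the authors' final ESC list, 651 of 1515 did (43.0%) and 8.32% of peaks were kept. Counting only peaks found in all 3 wild-type libraries gave 438 of 4769 genes with a kept peak (9.18%). It gave 159 genes away from the start, and 52.6 points between start and other peaks. On those peaks, chosen after seeing the data, the GGAC difference was -18.3 points and the EB difference 14.4 points. A start window of 100 nt gave 101 of 168 genes keeping a start peak (60.1%) and 624 keeping another. One of 500 nt gave 400 of 1018 genes keeping a start peak (39.3%), 28.0 points and 179 genes away from the start. Requiring all 3 libraries left 432 genes with a kept peak. Using any annotated start gave 342 of 654 genes keeping a start peak (52.3%) and 207 away from the start. Peaks on exactly 1 gene model gave 782 of 4618 genes with a kept peak (16.9%). Both settings were also chosen after seeing the data. The difference in A at the start, -0.290 points, became 2.06 for protein-coding genes and 0.315 with the 500 nt window, inside its counting interval. Peak positions without reads leave the depth of every list unknown.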
